A study of Homo sapiens with 10 samples.

Results

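The lysosomal hydrolases and membrane proteins described here are 42 genes chosen by name from a list: 12 cathepsins and other proteases, 11 glycosidases, 5 sulfatases, 6 lipid hydrolases with their activator proteins, 7 membrane proteins and progranulin. All 42 were among the 35606 gene IDs in each of 2 tables of normalized RNA-seq values. A gene was tested where its mean over the samples of a table reached 1 CPM, which kept 41 members in the knockdown table and 40 in the drug table. CTSO was below that level in both tables and CTSS in the drug table.

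Lysosomes degrade proteins, glycans and lipids with hydrolases that work at acid pH, which reach the organelle mostly by way of mannose 6-phosphate receptors. Membrane glycoproteins such as LAMP1 and LAMP2 line the organelle, and ion exchangers such as CLCN7 serve its luminal chemistry. Many of these genes share regulation by TFEB, TFE3 and MITF, which mTORC1 holds in the cytoplasm. PIKfyve, a lipid kinase of endolysosomal membranes, makes PI(3,5)P2, a lipid needed for the fission and recycling of lysosomes.

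QGP-1 is an established human cell line from a pancreatic neuroendocrine tumor, and all 10 samples came from it. In CRISPR interference (CRISPRi), a Cas9 without nuclease activity, joined to the KRAB repressor, is guided to the start of a gene. The knockdown table held 2 samples with the control guide sgNC and 2 with the guide sgPIKFYVE-1, both from puromycin-selected lines, and the knockdown rested on this single guide. The drug table held 2 samples treated with the vehicle DMSO, 2 with the PIKfyve inhibitor apilimod at 1 µM and 2 with the mTOR kinase inhibitor Torin-1 at 100 nM. The labels give 24 h for both drugs, and the figure legends of the study a shorter time. The labels do not say whether the 2 samples of a group came from separate cultures, so the p-values measure the spread between these samples, which may be technical. The test used here also shares its estimate of that spread across genes, so small p-values do not rest on a gene's own samples alone. In bulk RNA a change in the share of a cell type and a change in RNA per cell cannot be told apart.

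The estimated depth was between 9.30 and 13.6 M reads per sample, at which 3 reads correspond to between 0.227 and 0.329 CPM. PIKFYVE itself was at 101 and 97.5 CPM with sgNC and at 10.9 and 12.5 CPM with sgPIKFYVE-1. Neuroendocrine markers, 7 genes with CHGA among them, summed to between 6520 and 6524 CPM with DMSO, 5506 and 5729 CPM with apilimod, 8370 and 8544 CPM with Torin-1, 6450 and 6730 CPM with sgNC and 5445 and 5637 CPM with sgPIKFYVE-1. These ranges did not overlap within a table, but the genes did not move together. CHGA stood at 96.7% of its control mean with apilimod, 103.9% with Torin-1 and 101.9% with sgPIKFYVE-1. CHGB stood at 62.7% and ENO2 at 71.4% with sgPIKFYVE-1, and SCG2 at 79.7% and INSM1 at 82.0% with apilimod. With Torin-1 INSM1 stood at 179.7%, SCG2 at 136.5% and SYP at 83.9%. The part of these shifts in the results was not tested. NEUROD1 was at or below 0.70 CPM throughout. A list of 7 macrophage and leukocyte markers summed to between 2.52 and 3.49 CPM in the drug table, to between 7.92 and 8.002 CPM with sgNC and to between 17.8 and 19.7 CPM with sgPIKFYVE-1. LYZ carried this rise, and the other 6 genes had sums of 1.68 and 3.11 CPM with sgNC and 2.32 and 1.27 CPM with sgPIKFYVE-1. A list of 5 fibroblast markers summed to between 9.94 and 10.35 CPM with sgNC, 6.07 and 7.92 CPM with sgPIKFYVE-1 and 2.01 and 4.62 CPM in the drug table. TYROBP was at 0 in every sample. The median coefficient of variation of the members between the 2 samples of a group lay between 2.84% and 5.41%.

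A sequence motif that the choice of the list did not use was present in the promoters of part of the members, and whether its share differs from that of other genes was not tested. CACGTG is the core of the E-box to which TFEB and related factors are known to bind. RefSeq promoter sequences (GRCh38.p14) were matched for 30 of the 42 members, and a window from 250 bases before to 50 bases after the start was searched on both strands. A gene with several promoters counted where any of them held the motif. CACGTG was in a window of 10 of the 30 genes (33.3%). This compares with 12.5% of the 10279 genes with a promoter tested in the knockdown table and 8.77% of all 27305 genes with one. The longer motif TCACGTG, which contains CACGTG, was in 9 of the 30 (30.0%), against 7.14% and 4.49%. These 9 were CTSA, CTSD, CTSF, GAA, ARSB, GALNS, LAMP1, CLCN7 and CLN3. CD63 held CACGTG alone. As a description, 6 of the 9 genes with TCACGTG (66.7%) and 12 of the 21 without it (57.1%) were called higher in the knockdown comparison described further on. With apilimod these counts were 5 and 8, and with Torin-1 they were 3 and 7.

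The following stretches are shown because they hold TCACGTG, in capitals in either orientation, in a protease gene, an ion exchanger gene and a glycosidase gene whose RNA levels are also given further on. Each is written 5′ to 3′ on the strand of the gene. They lie at chr11:1763953-1763989 (reverse strand) for CTSD, chr16:1475055-1475091 (reverse strand) for CLCN7 and chr17:80101489-80101526 (forward strand) for GAA.
CTSD: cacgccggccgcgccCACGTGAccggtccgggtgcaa
CLCN7: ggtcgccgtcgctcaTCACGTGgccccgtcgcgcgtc
GAA: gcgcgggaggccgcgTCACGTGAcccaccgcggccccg

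The promoter of LAMP1 is shown whole because the motif recurs in it: the 250 bases before the RefSeq start, at chr13:113296989-113297238 on the forward strand, hold 5 separate copies, again in capitals. TCACGTG also recurs before the start of CTSA, GAA, GALNS and CLCN7, and not all of those stretches are shown.
LAMP1: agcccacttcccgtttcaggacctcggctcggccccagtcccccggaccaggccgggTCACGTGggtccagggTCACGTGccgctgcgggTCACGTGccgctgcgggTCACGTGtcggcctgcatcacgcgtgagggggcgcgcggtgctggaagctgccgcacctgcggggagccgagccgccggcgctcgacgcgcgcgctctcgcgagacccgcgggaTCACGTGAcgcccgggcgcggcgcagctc

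The comparison of sgPIKFYVE-1 with sgNC asks how the RNA of lysosomal genes differed when PIKFYVE was repressed. Most members were higher: 6 proteases, 5 lipid hydrolases or activators and all 7 membrane proteins rose, while glycosidases and sulfatases split in both directions. Of the 41 members tested, 23 (56.1%) passed the test as higher and 6 (14.6%) as lower, beside 21.6% and 20.9% of all 13591 genes tested. The groups did not overlap in 36 members (87.8%), beside 70.6% of all genes. The test was limma's moderated test on log2(CPM + 1), with Benjamini-Hochberg adjusted p under 0.05 over all genes of the table. The median log2 fold change of the members was 0.31, whereas that of all genes was below 0.01 in size. Summed over the 42 members, the level reached 129.0% and 127.2% of the sgNC mean in the 2 knockdown samples. By class, the counts of higher and lower members were 6 and 2 of 11 proteases, 2 and 2 of 11 glycosidases, 2 and 2 of 5 sulfatases, 5 and 0 of 6 lipid hydrolases and activators, and 7 and 0 of 7 membrane proteins, with progranulin also higher.

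The comparison of apilimod with DMSO asks the same for inhibition of the PIKfyve enzyme. Most membrane proteins, 5 proteases and 3 lipid hydrolases or activators rose, the protease CTSB fell, and no sulfatase passed the test. Of the 40 members tested, 16 (40.0%) were higher and 1 was lower, beside 5.75% and 2.79% of all 13520 genes tested. With quantile normalization these shares of all genes were 4.87% and 3.96%, and 13 members were higher and 1 lower. The groups did not overlap in 28 members (70.0%), beside 50.7% of all genes. The median log2 fold change was 0.18. The counts of higher and lower members were 5 and 1 of 10 proteases, 1 and 0 of 11 glycosidases, 3 and 0 of 6 lipid hydrolases and activators, and 6 and 0 of 7 membrane proteins. Progranulin was also higher, and the summed level of the members was 114.3% and 114.1% of the DMSO mean.

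These apilimod calls depended on the fit more than those of the knockdown. Without limma's variance trend 3 members remained higher, LGMN, LIPA and CLCN7, and 1 lower, beside 2.73% and 0.717% of all genes. Without the filter on low values 9 were higher, and the share of all genes in that fit was not computed. With 1 library left out at a time, the median log2 fold change of the members lay between 0.15 and 0.20. LGMN, LIPA, CLCN7 and CTSB kept their calls in all 13 alternative fits.

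The comparison of Torin-1 with DMSO asks how the same genes differed under inhibition of mTOR. Lysosomal genes moved in both directions within most classes. Of the 40 members tested, 13 (32.5%) were higher and 9 (22.5%) lower, beside 16.6% and 21.8% of all genes, so the share of lower members was near that of all genes. The groups did not overlap in 32 members (80%), beside 69.3% of all genes. The median log2 fold change was 0.055. Glycosidases gave 5 higher and 3 lower of 11, proteases 4 and 1 of 10, lipid hydrolases and activators 1 and 2 of 6, membrane proteins 2 and 2 of 7 and sulfatases 0 and 1 of 5. Progranulin was higher. The counts were 8 and 5 without the variance trend, beside 12.9% and 16.1% of all genes. Without DMSO replicate 2 the median log2 fold change of the members was 0.063.

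Apilimod and Torin-1 were also compared with each other at the doses used, which differ. Of the 40 members, 16 (40.0%) were higher under apilimod and 9 (22.5%) lower, beside 26.2% and 20.5% of all genes, and the groups did not overlap in 33 (82.5%), beside 72.5%. With quantile normalization, all genes gave 22.3% higher and 23.9% lower, and the members 14 and 12. The higher ones included 4 of 6 lipid hydrolases and activators and 5 of 7 membrane proteins, while 5 of 11 glycosidases were lower. The largest difference among the 40 was that of LIPA, at a log2 fold change of 1.08 (adjusted p = 1.75e-08, limma), and GM2A followed at 1.01 (adjusted p = 5.15e-06, limma).

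**Figure D1:**
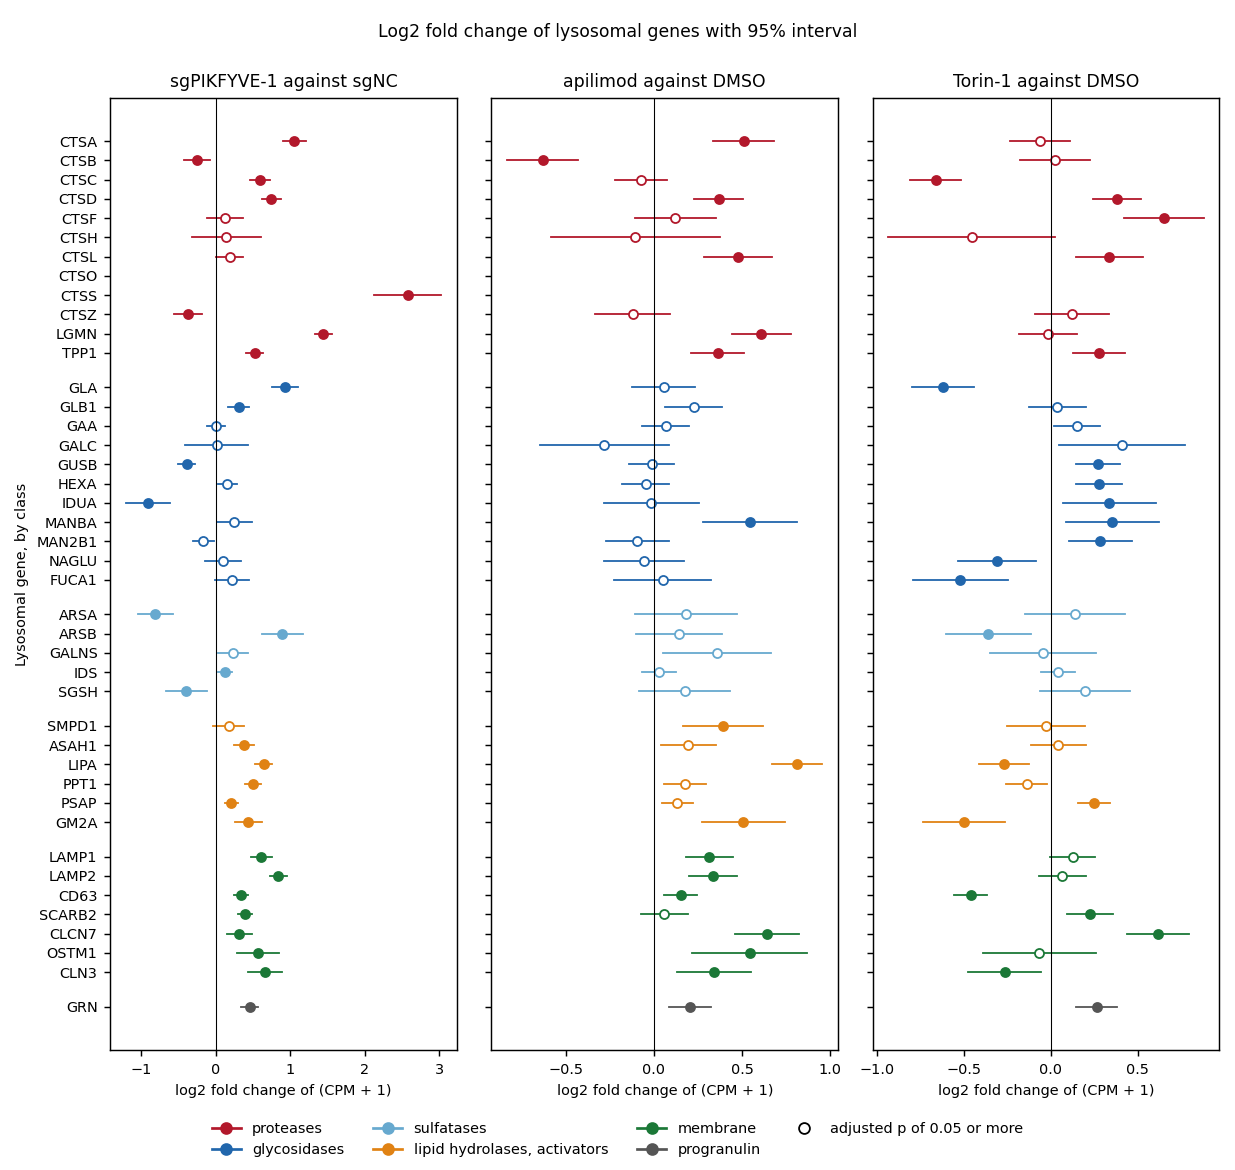
Log2 fold change of (CPM + 1) for each lysosomal gene, grouped by class, in the knockdown, apilimod and Torin-1 comparisons, with points for estimates, lines for 95% intervals, filled points for adjusted p under 0.05, and a separate scale in each panel. In the left panel 23 of 41 points are filled to the right of 0 and 6 to the left, in the middle panel 16 and 1 of 40, and in the right panel 13 and 9 of 40.

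Among the proteases, LGMN had the highest log2 fold change of those tested with apilimod and the second highest with sgPIKFYVE-1. LGMN encodes legumain, an asparaginyl endopeptidase that also processes cathepsins (ENSG00000100600.15, chr14:92703807-92748702, reverse strand, GENCODE release 29 on GRCh38). Its level was 76.8 and 78.3 CPM with sgNC and 214 and 212 CPM with sgPIKFYVE-1. In the drug table it was 54.5 and 59.4 CPM with DMSO, 83.9 and 90.9 CPM with apilimod and 55.0 and 57.4 CPM with Torin-1. Both knockdown samples and both apilimod samples lay above their controls, while the Torin-1 samples lay within the range of the DMSO samples. The log2 fold changes were 1.45 (SE 0.06, adjusted p = 2.17e-13, limma) with sgPIKFYVE-1, 0.61 (SE 0.08, adjusted p = 1.3e-04) with apilimod and -0.02 (95% interval -0.18 to 0.15) with Torin-1.

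CTSA, the protective protein that also stabilizes lysosomal galactosidase and sialidase, rose in the same comparisons as LGMN. It was at 65.7 and 75.5 CPM with sgNC and at 156 and 139 CPM with sgPIKFYVE-1. With DMSO it was at 71.1 and 79.4 CPM, with apilimod at 115 and 101 CPM, and with Torin-1 at 73.4 and 70.5 CPM. Its log2 fold change was 1.05 (adjusted p = 1.12e-09, limma) with sgPIKFYVE-1, 0.51 (adjusted p = 8.71e-04) with apilimod and -0.06 (95% interval -0.24 to 0.11) with Torin-1.

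CTSD, an aspartic protease, and TPP1, a tripeptidyl peptidase lost in a neuronal ceroid lipofuscinosis, were higher in all treated groups. CTSD was at 140 and 139 CPM with sgNC, 252 and 219 CPM with sgPIKFYVE-1, 134 and 123 CPM with DMSO, 172 and 160 CPM with apilimod and 172 and 162 CPM with Torin-1. No treated sample of CTSD overlapped its controls. The log2 fold changes of CTSD were 0.75, 0.37 and 0.38 for sgPIKFYVE-1, apilimod and Torin-1, with limma adjusted p of 1.04e-08, 0.00196 and 4.04e-04. TPP1 was at 125 and 129 CPM with sgNC, 184 and 181 CPM with sgPIKFYVE-1, 82.7 and 76.1 CPM with DMSO, 105 and 99.8 CPM with apilimod and 93.7 and 98.9 CPM with Torin-1. Its log2 fold changes were 0.52, 0.36 and 0.28, again without overlap.

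CTSB (ENSG00000164733.21), a cysteine cathepsin, went the other way. It was at 57.4 and 63.9 CPM with sgNC and 52.8 and 48.4 CPM with sgPIKFYVE-1, and at 37.8 and 38.4 CPM with DMSO, 24.3 and 24.3 CPM with apilimod and 36.9 and 40.8 CPM with Torin-1. CTSB fell by 0.63 on the log2 scale with apilimod (adjusted p = 5.09e-04, limma), and it was the only member called lower in that comparison. With sgPIKFYVE-1 it fell by 0.25 (adjusted p = 0.0175), a call kept in 6 of 10 alternative fits.

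CTSC, or dipeptidyl peptidase I, which activates serine proteases, rose in the knockdown and fell with Torin-1. Its level was 73.7 and 74.1 CPM with sgNC and 109 and 115 CPM with sgPIKFYVE-1. DMSO samples were at 99.997 and 105 CPM, apilimod samples at 94.5 and 100.5 CPM and Torin-1 samples at 63.6 and 65.2 CPM. CTSC rose by 0.59 on the log2 scale with sgPIKFYVE-1 (adjusted p = 5.03e-07, limma) and fell by 0.66 with Torin-1 (adjusted p = 5.08e-06), whereas the apilimod and DMSO samples overlapped.

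CTSS, a cysteine cathepsin best known from antigen-presenting cells, had the largest log2 fold change of the members in the knockdown, from a low level. It was at 1.78 and 1.42 CPM with sgNC and at 16.8 and 12.4 CPM with sgPIKFYVE-1, a log2 fold change of 2.58 (SE 0.21, adjusted p = 1.27e-08, limma). In the drug table it lay between 0.366 and 1.19 CPM in the 6 samples, an estimated 4.04 to 13.8 reads, and was not tested. Of the macrophage and leukocyte list, LYZ and CD14 reached the level for testing in the knockdown table. LYZ rose there, with sgNC samples at 6.32 and 4.81 CPM and sgPIKFYVE-1 samples at 15.5 and 18.4 CPM (adjusted p = 1.57e-06, limma). CD14 did not pass the test (adjusted p = 0.21), with sgNC samples at 1.11 and 2.18 CPM and sgPIKFYVE-1 samples at 1.21 and 0.431 CPM. Of the others, ITGAM and TYROBP were at 0 in these samples, and PTPRC, CSF1R and FCER1G stayed at or below 0.548 CPM. The part of such cells in the CTSS result was not tested.

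CTSZ, a carboxypeptidase, was at 49.8 and 45.5 CPM with sgNC and at 35.2 and 37.9 CPM with sgPIKFYVE-1, a log2 fold change of -0.37 (adjusted p = 0.00223, limma), and did not pass the test with either drug. In the drug table CTSZ was at 37.7 and 34.0 CPM with DMSO, 32.7 and 33.0 CPM with apilimod and 36.2 and 42 CPM with Torin-1. CTSF, a cysteine cathepsin, was at 25.8 and 23.2 CPM with sgNC, 29.3 and 24.5 CPM with sgPIKFYVE-1, 20.6 and 19.4 CPM with DMSO, 22.1 and 21.6 CPM with apilimod and 33.8 and 30.3 CPM with Torin-1. CTSF rose with Torin-1 by 0.65 on the log2 scale (adjusted p = 3.08e-04, limma), the highest of the proteases there, and passed the test in neither other comparison with a control. CTSL, another endopeptidase of this family, rose with apilimod by 0.48 and with Torin-1 by 0.34, and with sgPIKFYVE-1 its log2 fold change was 0.19 (adjusted p = 0.0881). CTSH passed the test in none of the 3 comparisons with a control. CTSO was at or below 0.241 CPM in 9 samples and at 3.85 CPM in sgPIKFYVE-1 replicate 2.

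**Figure D2:**
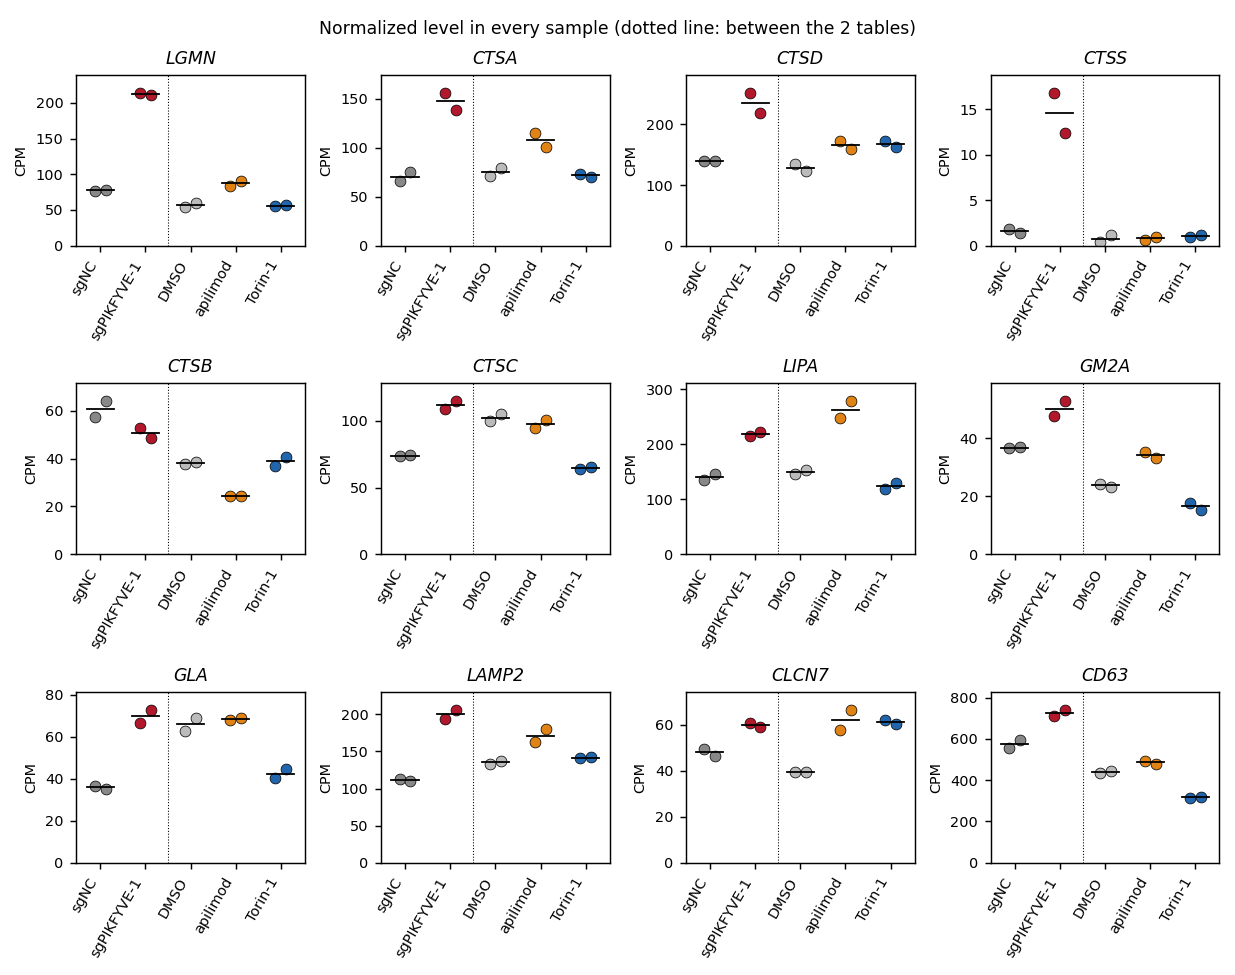
Normalized level in CPM of 12 lysosomal genes in each of the 10 samples, with points for samples, horizontal lines for group means, and a dotted line between the knockdown and drug tables. LGMN stands at 214 and 212 CPM with sgPIKFYVE-1 against 76.8 and 78.3 CPM with sgNC, and CTSB at 24.3 and 24.3 CPM with apilimod, below every other sample of its table.

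The glycosidases, which remove sugars from glycoproteins, glycolipids and glycosaminoglycans, were called about as often as all genes with sgPIKFYVE-1 and apilimod. With sgPIKFYVE-1, 2 of 11 were higher and 2 lower, beside 21.6% and 20.9% of all genes. With apilimod 1 was higher and 0 lower, beside 5.75% and 2.79%. GLA, the galactosidase deficient in Fabry disease, was at 36.7 and 35.3 CPM with sgNC and at 66.5 and 72.7 CPM with sgPIKFYVE-1. It was at 62.5 and 69.0 CPM with DMSO, 68.1 and 68.6 CPM with apilimod and 40.2 and 44.6 CPM with Torin-1. Thus GLA rose by 0.93 on the log2 scale in the knockdown (adjusted p = 2.85e-08, limma) and fell by 0.62 with Torin-1 (adjusted p = 5.51e-05), while the apilimod samples lay inside the range of the DMSO samples. GLB1, the lysosomal beta-galactosidase, was the other glycosidase that rose in the knockdown, by 0.31.

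IDUA, the iduronidase that degrades heparan and dermatan sulfate, had the lowest log2 fold change of the members with sgPIKFYVE-1. It was at 19.1 and 19.5 CPM with sgNC and at 9.64 and 9.92 CPM with sgPIKFYVE-1, a log2 fold change of -0.91 (SE 0.14, adjusted p = 3.14e-05, limma). With DMSO it was at 16.9 and 16.4 CPM, with apilimod at 15.8 and 17.2 CPM and with Torin-1 at 23.3 and 19.5 CPM. The Torin-1 difference of 0.34 (adjusted p = 0.0463) was kept in 6 of 13 alternative fits. GUSB, or beta-glucuronidase, fell by 0.39 in the knockdown and rose by 0.27 with Torin-1. Reads of GUSB can be shared with its pseudogenes, and with 10 of these added the knockdown ratio of mean CPM was -0.37 on the log2 scale.

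MANBA, the beta-mannosidase, was the glycosidase that rose with apilimod. Its level was 16.5 and 16.2 CPM with DMSO, 24.6 and 24.04 CPM with apilimod and 23.7 and 18.9 CPM with Torin-1. The log2 fold changes were 0.54 (adjusted p = 0.0126, limma) and 0.35 (adjusted p = 0.0359), kept in 7 and 8 of 13 alternative fits. In the knockdown table MANBA was at 22.9 and 22.4 CPM with sgNC and at 25.8 and 28.5 CPM with sgPIKFYVE-1, a log2 fold change of 0.25 (adjusted p = 0.0765). With Torin-1, HEXA, a subunit of hexosaminidase A, rose by 0.28, and MAN2B1, the alpha-mannosidase, by 0.29. FUCA1, the fucosidase, fell by 0.52 and NAGLU, a glucosaminidase of heparan sulfate breakdown, fell by 0.31, the latter kept in 7 of 13 fits. GAA, the acid glucosidase deficient in Pompe disease, and GALC, which cleaves galactosylceramide, passed the test in none of the 3 comparisons with a control. GAA was at 144 and 144 CPM with sgNC, 151 and 138 CPM with sgPIKFYVE-1, 129 and 125 CPM with DMSO, 139 and 128 CPM with apilimod and 141 and 141 CPM with Torin-1. Its log2 fold changes were 0.00 with sgPIKFYVE-1 (95% interval -0.12 to 0.13), 0.07 with apilimod and 0.15 with Torin-1.

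The sulfatases split in the knockdown. ARSB, which removes sulfate from dermatan and chondroitin sulfate, was at 15.8 and 12.5 CPM with sgNC and at 27.8 and 26.2 CPM with sgPIKFYVE-1, a log2 fold change of 0.89 (adjusted p = 1.89e-05, limma). ARSA, which acts on sulfatide, was at 31.8 and 36.5 CPM with sgNC and at 19.6 and 18.4 CPM with sgPIKFYVE-1, a log2 fold change of -0.81 (adjusted p = 8.82e-06, limma). The 2 genes thus moved in opposite directions by similar amounts, each without overlap between groups. In the drug table ARSA was at 20.4 and 17.2 CPM with DMSO, 24.3 and 18.8 CPM with apilimod and 20.9 and 20.5 CPM with Torin-1, and passed no test. With the drugs ARSB was at 35.8 and 29.7 CPM for DMSO, 38.9 and 33.5 CPM for apilimod and 25.8 and 24.6 CPM for Torin-1, and the fall with Torin-1 of 0.36 had an adjusted p of 0.0219 and was kept in 9 of 13 fits. SGSH, the heparan N-sulfatase, fell by 0.39 in the knockdown, and IDS, the iduronate sulfatase, rose by 0.12. These calls were kept in 6 and 3 of 10 alternative fits. Exons of IDS overlap those of AC244197.3 on the same strand over 676 bases, and the log2 fold change of that gene was -1.05 in the knockdown. On the opposite strand, exons of SGSH overlap those of CARD14 over 85 bases and of SLC26A11 over 8 bases. The log2 fold changes of CARD14 and SLC26A11 in the knockdown were -0.70 and -0.28, and their part in the SGSH call was not tested. GALNS passed the test in none of the 3 comparisons with a control.

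The lipid hydrolases and activators rose in the knockdown in 5 of 6 cases. LIPA, the acid lipase that frees cholesterol from its esters (ENSG00000107798.18, chr10:89213569-89414557, reverse strand), was at 134 and 146 CPM with sgNC and at 216 and 222 CPM with sgPIKFYVE-1. In the drug table it was at 146 and 152 CPM with DMSO, 248 and 278 CPM with apilimod and 118 and 129 CPM with Torin-1. LIPA had the largest log2 fold change of the members with apilimod, 0.81 (SE 0.07, adjusted p = 1.55e-06, limma), beside 0.64 with sgPIKFYVE-1 (adjusted p = 2.24e-08), and it fell by 0.27 with Torin-1 (adjusted p = 0.00587). Exons of IFIT2 on the opposite strand overlap LIPA over 65 bases, and IFIT2 had a log2 fold change of 1.10 in the knockdown and -0.02 with apilimod. Whether reads were counted by strand is not given in the sources used here.

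GM2A, the activator that presents GM2 ganglioside to hexosaminidase A, also rose in the knockdown and with apilimod and fell with Torin-1. It was at 36.6 and 36.8 CPM with sgNC and at 47.5 and 52.6 CPM with sgPIKFYVE-1. The DMSO samples were at 24.2 and 23.3 CPM, those with apilimod at 35.2 and 33.1 CPM and those with Torin-1 at 17.7 and 15.4 CPM. No group of GM2A overlapped its control, and the log2 fold changes were 0.44, 0.51 and -0.50 for sgPIKFYVE-1, apilimod and Torin-1 (limma adjusted p of 5.13e-04, 0.00912 and 0.00263).

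PSAP, the precursor of the saposins that activate sphingolipid hydrolases, had small log2 fold changes. It was at 878 and 920 CPM with sgNC, 1052 and 1027 CPM with sgPIKFYVE-1, 668 and 654 CPM with DMSO, 743 and 709 CPM with apilimod and 803 and 768 CPM with Torin-1. The log2 fold changes were 0.21 (adjusted p = 3.39e-04, limma), 0.13 (adjusted p = 0.0681) and 0.25 (adjusted p = 4.09e-04). SMPD1, the acid sphingomyelinase, was at 23.3 and 23.0 CPM with DMSO, 32.3 and 29.1 CPM with apilimod and 23.6 and 21.8 CPM with Torin-1. It rose with apilimod by 0.39 (adjusted p = 0.0324, limma), a call kept in 7 of 13 fits. In the knockdown table SMPD1 was at 32.5 and 29.7 CPM with sgNC and 33.4 and 37.2 CPM with sgPIKFYVE-1, with an adjusted p of 0.167. PPT1, which removes palmitate from proteins, rose by 0.50 and ASAH1, the acid ceramidase, by 0.38 in the knockdown, and neither passed with a drug. PPT1 overlaps CAP1 on the opposite strand over 1189 exonic bases, and the log2 fold change of CAP1 in the knockdown was -0.01.

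All 7 membrane proteins rose in the knockdown. LAMP2, a glycoprotein of the lysosomal membrane with a role in autophagy, led them, at 113 and 110 CPM with sgNC and at 194 and 206 CPM with sgPIKFYVE-1. It was at 134 and 137 CPM with DMSO, 162 and 180 CPM with apilimod and 141 and 142 CPM with Torin-1. Its log2 fold changes were 0.84 (adjusted p = 5.52e-10, limma), 0.34 (adjusted p = 0.00295) and 0.07 (95% interval -0.07 to 0.20). LAMP1 (ENSG00000185896.11, chr13:113297241-113323672, forward strand), whose promoter is shown earlier, was at 89.9 and 101 CPM with sgNC, 152 and 141 CPM with sgPIKFYVE-1, 105 and 106 CPM with DMSO, 134 and 129 CPM with apilimod and 118 and 112 CPM with Torin-1. LAMP1 rose by 0.61 with sgPIKFYVE-1 and by 0.32 with apilimod, and with Torin-1 its log2 fold change was 0.12 (adjusted p = 0.124).

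CLCN7, the chloride and proton exchanger of the lysosome (ENSG00000103249.18, chr16:1444934-1475580, reverse strand), rose with each treatment. It was at 49.6 and 46.5 CPM with sgNC and 60.8 and 59.2 CPM with sgPIKFYVE-1. With DMSO it was at 39.5 and 39.5 CPM, with apilimod at 57.9 and 66.4 CPM and with Torin-1 at 62.0 and 60.2 CPM. The log2 fold changes were 0.32, 0.64 and 0.62 (limma adjusted p of 0.00299, 1.77e-04 and 6.87e-05), and those of both drugs were kept in all 13 alternative fits. Its partner OSTM1, which stabilizes the exchanger, rose by 0.57 with sgPIKFYVE-1 and by 0.54 with apilimod, the latter kept in 8 of 13 fits, and had a log2 fold change of -0.07 with Torin-1.

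CD63, a tetraspanin of late endosomes and exosomes, was at 553 and 595 CPM with sgNC and 708 and 740 CPM with sgPIKFYVE-1. Among the drug samples it was at 432 and 443 CPM with DMSO, 493 and 479 CPM with apilimod and 315 and 320 CPM with Torin-1. CD63 rose by 0.33 in the knockdown and fell by 0.46 with Torin-1 (adjusted p = 2.58e-06, limma), and its rise of 0.15 with apilimod (adjusted p = 0.0462) was kept in 5 of 13 fits. CLN3, the protein lost in juvenile ceroid lipofuscinosis, was at 24.4 and 23.7 CPM with sgNC, 42.9 and 34.6 CPM with sgPIKFYVE-1, 29.7 and 27.7 CPM with DMSO, 35.3 and 38.0 CPM with apilimod and 24.02 and 23.4 CPM with Torin-1. CLN3 rose by 0.66 with sgPIKFYVE-1 (adjusted p = 8.04e-05, limma). Its rise of 0.34 with apilimod was kept in 5 of 13 fits and its fall of 0.27 with Torin-1 in 2 of 13. SCARB2, a glycoprotein of the lysosomal membrane also called LIMP-2, rose by 0.39 in the knockdown and by 0.23 with Torin-1, the latter kept in 9 of 13 fits.

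GRN, or progranulin, a secreted glycoprotein processed in lysosomes, was at 311 and 303 CPM with sgNC and 447 and 396 CPM with sgPIKFYVE-1. With DMSO it was at 261 and 248 CPM, with apilimod at 299 and 286 CPM and with Torin-1 at 319 and 292 CPM. It was higher in every treated sample than in its controls. The log2 fold changes were 0.45 (adjusted p = 1.13e-06, limma), 0.20 (adjusted p = 0.0354) and 0.26 (adjusted p = 0.00195), and the second was kept in 5 of 13 fits.

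**Figure D3:**
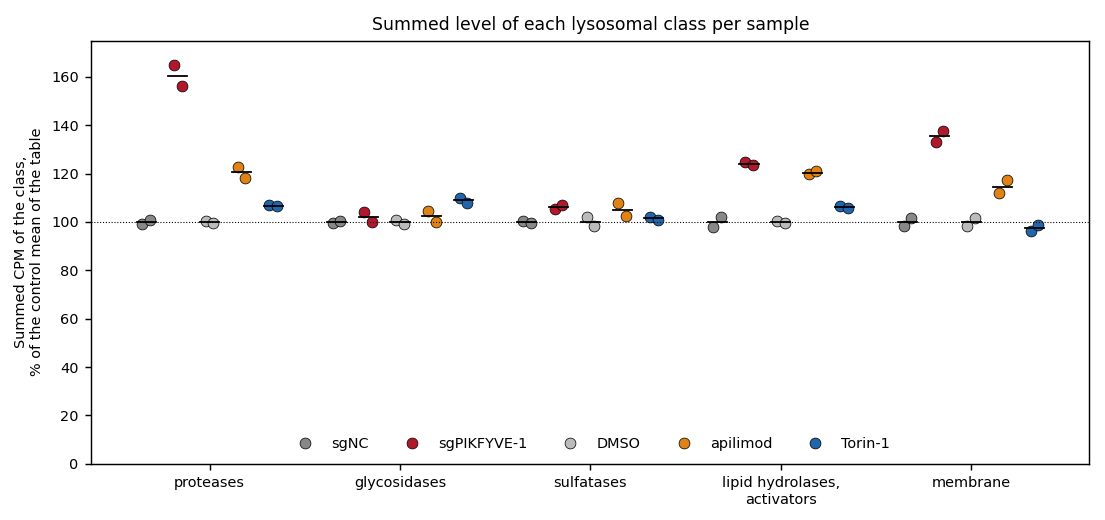
Summed CPM of each of 5 lysosomal classes per sample, as a percentage of the mean of the 2 controls of the same table, with points for samples and lines for group means. The proteases stand at 164.9% and 156.2% with sgPIKFYVE-1 and the glycosidases at 104.1% and 100.1%.

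The sums by class were as follows. With sgPIKFYVE-1 the membrane proteins summed to 133.2% and 137.8% of the sgNC mean and the lipid hydrolases and activators to 124.7% and 123.5%, while the sulfatases stood at 105.3% and 107.1%. With apilimod the proteases summed to 122.7% and 118.3% of the DMSO mean and the lipid class to 119.8% and 121.1%, and the glycosidases stood at 104.7% and 100.2%. With Torin-1 the glycosidases summed to 110.1% and 108.0% and the membrane proteins to 96.2% and 98.9%. The lipid class summed to 106.5% and 105.8% with Torin-1, although its median log2 fold change was -0.083 and 1 of its members rose and 2 fell. Genes of high level weigh most in such sums.

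The knockdown and apilimod were set side by side, since both lower PIKfyve function and their control samples are separate. The values stand in 2 tables that were fitted separately, so the sizes of the changes were not tested against each other. Of the 40 members tested in both tables, 22 rose in the knockdown and 16 with apilimod, and 13 rose in both, which is 59.1% of the former and 81.2% of the latter. Among all 13235 genes tested in both tables, 491 rose in both, 17.0% and 63.5% of the respective lists. CTSB was lower in both, as were 203 of all genes. No member was called in opposite directions. Of all 13235 genes, 57 were higher in the knockdown and lower with apilimod and 61 the reverse. These are so few that an absence among 40 members is near the share of all genes. The members that rose in the knockdown without a call under apilimod were CTSC, GLA, GLB1, ARSB, IDS, ASAH1, PPT1, PSAP and SCARB2. Those that rose with apilimod without a call in the knockdown were CTSL, MANBA and SMPD1.

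**Figure D4:**
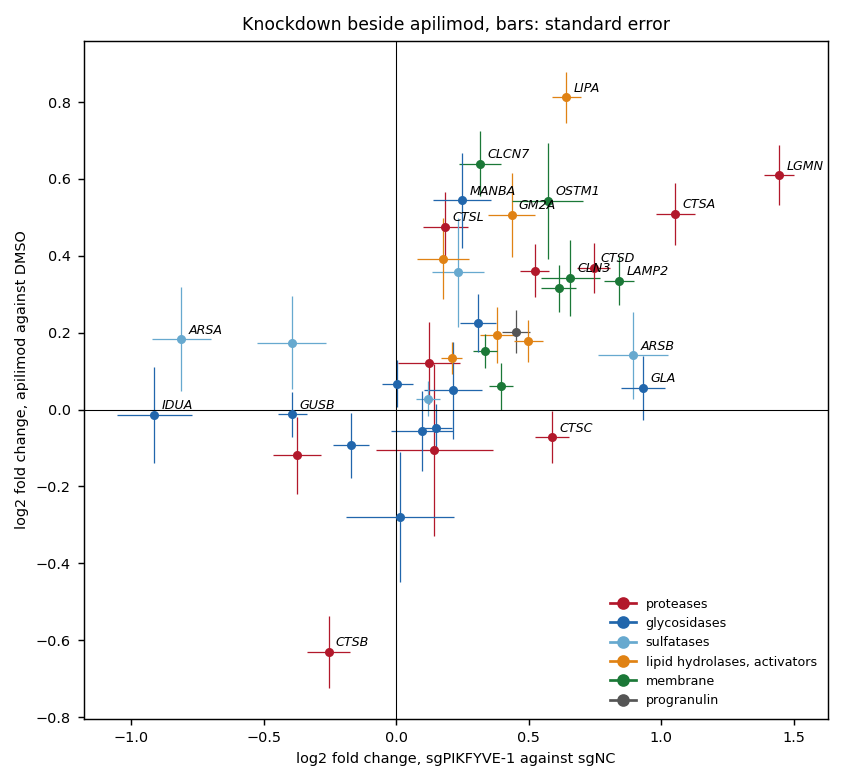
Log2 fold change of each lysosomal gene with sgPIKFYVE-1 against sgNC (horizontal) and with apilimod against DMSO (vertical), coloured by class, with standard errors as bars. LGMN and CTSA lie far to the right at 1.45 and 1.05, LIPA is highest at 0.81, and CTSB is below 0 on both axes.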

How the data were processed

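RNA-seq of 10 QGP-1 samples, 2 in each of 5 groups, was analysed. Per the labels ribosomal RNA was removed, although the molecule is given as poly(A) RNA and the methods of the study describe oligo(dT) selection. The submitters' processing notes name bcl2fastq 2.20, FastQC, Trimmomatic, edgeR, DESeq2 and hg38. The authors summed transcript estimates to genes and applied TMM scaling, and deposited 1 table for the knockdown and 1 for the drugs. Whether these were scaled together is not given in the sources used here, and levels were not tested between them. The quantifier and annotation are not given in the sources used here. The deposited values are a normalized signal on a CPM scale with column sums between 972493 and 1024332, where plain CPM had been assumed in the planned design. TMM sets changes relative to most genes, so a shift of all RNA would not show. Low values within 0.01 reads of a whole number made up 65.1% to 68.9%, too few to recover counts. Intervals from reads cover counting error only, and replicate differences exceeded sampling noise (median ratio 1.86 to 2.74).

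A gene entered the test where its average in the table reached 1 CPM. The test was that of limma 3.58.1 (R 4.3.3) on log2(CPM + 1), by lmFit and eBayes with a variance trend, adjusted by Benjamini-Hochberg over every gene tested, with a threshold of 0.05, over 4 samples in the knockdown fit and 6 in the drug fit. The pseudocount of 1 understates changes of low genes. The procedure was tested on simulated data. Any member could be named, and values of every sample were given for members past the threshold in all 3 comparisons with a control and for the highest and lowest called member of each class and comparison. CTSA and LAMP1 were added in full after their values were seen, and GAA was also given in full outside these rules. Of each other list the highest and lowest called gene per comparison was named, except for 1 gene not reported here. The members and lists were chosen with earlier results of these data known. Alternatives were a pseudocount of 0.1, no filter, quantile normalization, no variance trend, a replicate block, only the compared groups, values rescaled to a common total, and each sample left out. With 2 samples a group, no test for outlying samples was made. Overlapping exons were taken from GENCODE release 29 on GRCh38. Promoters came from RefSeq for 30 members. Not used here were those of LGMN, CTSO, CTSB, LAMP2, CTSS, PSAP, MANBA, SGSH, ASAH1, ARSA, NAGLU and HEXA. Plots used Python 3.11.15 and matplotlib 3.10.9.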

Additional observations from a re-analysis of the deposited data

How the results depend on the processing

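Over all alternatives, no member's called difference changed sign. All 13 alternative fits kept 4 of the 17 apilimod calls, 10 of the 22 Torin-1 calls and 18 of the 25 between the drugs, and all 10 kept 25 of the 29 knockdown calls. Members called higher with apilimod numbered 9 without the filter on low values, a fit for which the share of all genes was not computed. They numbered 3 without the variance trend, beside 2.73% of all genes. Torin-1 gave 8 higher and 5 lower without that trend, beside 12.9% and 16.1% of all genes. The median log2 fold change with quantile normalization was 0.13 for apilimod, 0.11 for Torin-1, 0.079 between the drugs and 0.28 for the knockdown, and with values rescaled to a common total, a choice made after seeing the data, 0.15, 0.086, 0.11 and 0.27. Leaving out 1 sample at a time gave 7 to 18 higher members and 1 lower, with a median of 0.15 to 0.20, for apilimod. The same gave 8 to 12 higher, 6 to 9 lower and a median of 0.047 to 0.092 for Torin-1, 13 to 17, 7 to 8 and 0.14 to 0.21 between the drugs, and 22 to 24, 4 to 6 and 0.30 to 0.33 for the knockdown. In these fits a group left with 1 sample is assumed to vary like the others. The cause of these shifts was not tested. Between groups, the deviations of samples with the same replicate number had correlations of 0.037 to 0.104. With 2 samples a group, this cannot decide whether the shared numbers mark pairs. A fit with the replicate block called 24 higher and 7 lower in the knockdown, 20 and 1 with apilimod, 14 and 10 with Torin-1 and 19 and 10 between the drugs. The shares of all genes in this fit were not computed, so these counts cannot be read as a result about the members. The minimum of 1 CPM left out CTSO and, in the drug table, CTSS.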

Other observations

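Other genes of the lysosome, from lists that hold no member described so far, moved as follows. The alternative fits were read for the members only, so how far the calls of these lists depend on the fit was not tested. Among 18 other lysosomal enzymes tested, 10 were higher and 1 lower with sgPIKFYVE-1, 4 and 0 with apilimod, and 4 and 1 with Torin-1. Of all genes tested, 21.6% were higher and 20.9% lower with sgPIKFYVE-1, 5.75% and 2.79% with apilimod, and 16.6% and 21.8% with Torin-1, and these shares apply to each list that follows. NEU1, the lysosomal sialidase that acts in a complex with CTSA, was at 9.34 and 9.54 CPM with sgNC and 27.7 and 27.0 CPM with sgPIKFYVE-1. In the drug table NEU1 was at 1.04 and 2.91 CPM with DMSO, 26.3 and 23.9 CPM with apilimod and 6.55 and 5.27 CPM with Torin-1. Its log2 fold changes were 1.44, 3.21 and 1.28 (limma adjusted p of 4.13e-08, 7.44e-07 and 9.77e-04). CTSK fell by 0.49 in the knockdown (adjusted p = 0.0337) and rose by 0.42 with Torin-1 (adjusted p = 0.0338). NAAA, an amidase of fatty acid ethanolamides, rose by 0.76 in the knockdown and fell by 0.57 with Torin-1.

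Among 18 other lysosomal membrane and transport proteins, 7 were higher and 2 lower with sgPIKFYVE-1, 7 and 0 with apilimod, and 3 and 1 with Torin-1, the 3 being near the share of all genes. NPC2, a carrier of cholesterol in the lumen, was at 42.8 and 42.3 CPM with sgNC and 113 and 102 CPM with sgPIKFYVE-1, and at 21.5 and 23.6 CPM with DMSO, 60.1 and 59.3 CPM with apilimod and 25.2 and 25.1 CPM with Torin-1. MCOLN1, a cation channel opened by PI(3,5)P2, rose by 0.90 in the knockdown and by 0.33 with apilimod (adjusted p = 0.0388, limma). TPCN1, another channel of these membranes, fell by 0.32 in the knockdown and rose by 0.71 with Torin-1. SIDT2 fell by 0.44 in the knockdown and rose by 0.64 with Torin-1, with which LAPTM4B fell by 0.60. Among 18 genes for the delivery and maturation of lysosomal enzymes, 5 were higher and 3 lower with sgPIKFYVE-1, 2 and 0 with apilimod, and 2 and 5 with Torin-1, counts near the shares of all genes in the knockdown and with Torin-1. Both mannose 6-phosphate receptors, IGF2R and M6PR, rose in the knockdown, by 0.53 and 0.56, and with apilimod, by 0.64 and 0.42. With Torin-1 IGF2R rose by 0.51 and M6PR fell by 0.42. SUMF1, the enzyme that activates sulfatases, rose by 0.77 with Torin-1 and did not pass the test in the other comparisons with a control. AP1B1, a subunit of the adaptor AP-1, fell by 0.53 with Torin-1 and rose by 0.34 in the knockdown, where GGA3, another adaptor, fell by 0.35. Of the cathepsin inhibitors, 2 were tested, and CSTB rose by 0.53 in the knockdown and by 0.73 with apilimod, while CST3 fell by 0.24 in the knockdown and rose by 0.19 with Torin-1.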
